A study of Mus musculus with 2 samples.

Results

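Islet endothelial cells are the cells that line the capillaries of the pancreatic islet, and they were picked out of 2 droplet libraries by their transcripts. A cell counted as endothelial if at least 10 unique molecular identifiers (UMIs, each marking 1 captured transcript) came from Pecam1, Cdh5, Plvap, Kdr, Flt1, Esm1, Egfl7 and Emcn together, with at least 3 of these 8 genes detected. It also had to hold under 15% insulin, under 3% glucagon and under 2% somatostatin UMIs, at most 1 UMI of the leukocyte gene Ptprc and at most 10% mitochondrial UMIs. The rule found 128 cells among 8674 kept cells, 24 of 4151 in the transgenic library and 104 of 4523 in the wild type library. The transgenic library came from islets of C57BL/6 mice at postnatal day 70 (10 weeks) whose genotype is labelled as beta cell specific miR-503 transgenic. Whether endothelial cells express the transgene was not tested. The wild type library came from islets of wild type C57BL/6 mice of the same age. Both suspensions were made by a short digestion with trypsin and captured with 10x Chromium 3 prime reagents, version 2. Neither the promoter of the transgene nor the number of mice per library is stated in the sources used here. The series title concerns miR-503 that beta cells release in exosomes, insulin resistance and beta-cell senescence, and the comparison asked how the vessel cells differ between the libraries. With 1 library per group no test across samples was possible, cells are not replicates of a group, and every 95% interval (exact conditional binomial for ratios, exact Clopper-Pearson for shares) covers counting error only.

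Islet capillaries are dense and fenestrated: their endothelium is pierced by pores closed with a diaphragm, which lets hormones and glucose cross quickly. Beta cells keep this state by secreting VEGF-A, which acts on the receptors encoded by Kdr and Flt1, and endothelial cells in turn lay down the basement membrane on which beta cells sit. Pericytes, the mural cells of capillaries, wrap the same vessels. A microRNA acts by pairing its seed, bases 2 to 8, with sites in target transcripts. The mature sequences below are from RefSeq (GRCm38.p6) and are shown because the transgene product and its relatives share most of the seed, which is in capitals.
mmu-miR-503-5p: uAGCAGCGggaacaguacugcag
mmu-miR-16-5p: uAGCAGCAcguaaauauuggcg
mmu-miR-322-5p: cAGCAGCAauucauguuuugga
The miR-503 strand lies on chromosome X at 53054027 to 53054049, minus strand. Its 7-base seed was held by 1 mouse mature miRNA of the table, miR-503-5p itself, and its bases 2 to 7 by 11. A mature miRNA has no poly(A) tail and was not read by these libraries.

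Endothelial cells made up a smaller part of the transgenic suspension. They were 0.578% of transgenic kept cells (0.371 to 0.859) and 2.30% of wild type kept cells (1.88 to 2.78). Among the cells low in insulin, glucagon and somatostatin they were 24 of 316 transgenic cells (7.59%, 4.93 to 11.1) and 104 of 340 wild type cells (30.6%, 25.7 to 35.8). The 2 intervals did not overlap with either denominator, as the bars of endothelial shares show. Hormone-low cells with at least 2 Ptprc UMIs, a leukocyte class, went the other way, with 61 transgenic and 35 wild type cells. A share is set by how many cells survive digestion and capture as well as by how many the islet holds, and their parts cannot be told apart here.

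**Figure D1:**
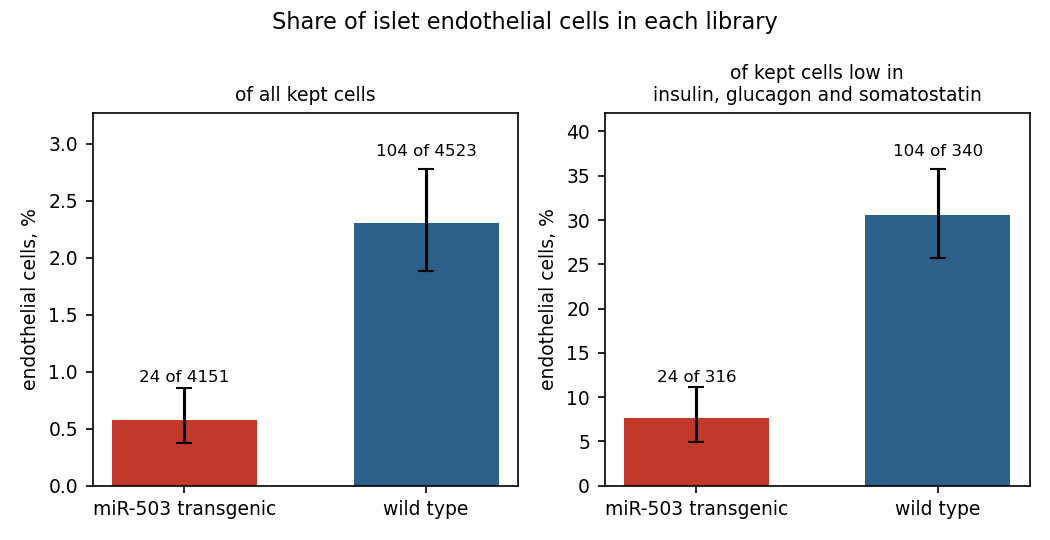
Bars give endothelial cells as a percentage of all kept cells (left) and of kept cells low in insulin, glucagon and somatostatin (right), with exact 95% intervals that cover counting error only. The transgenic bars stand at 0.578% and 7.59%, and the wild type bars at 2.30% and 30.6%.

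The rule set the cells clearly apart. The lowest members held 25 rule UMIs in the transgenic and 28 in the wild type library, and no member held 10 to 19. The highest hormone-low, Ptprc-low cell outside held 13 UMIs of 1 rule gene in the transgenic library and 7 UMIs of 5 rule genes in the wild type library. Among kept cells with enough marker UMIs and genes, 5 transgenic and 9 wild type cells were left out for their insulin share, 0 transgenic and 2 wild type cells for glucagon, and 0 transgenic and 1 wild type cell for Ptprc. With these cells counted the shares were 0.699% in transgenic and 2.56% in wild type. Members held a median of 8388.5 UMIs (6745 to 14048) in the transgenic and 8077 (5785 to 20584) in the wild type library. The median number of genes per cell was 2767.5 in transgenic and 2718.5 in wild type, and mitochondrial genes took 1.94% of transgenic and 2.19% of wild type UMIs. Their UMIs summed to 207628 in transgenic and 894681 in wild type, so the transgenic sum limits the precision of every ratio. Insulin took a median of 2.62% of member UMIs in transgenic and 2.17% in wild type, against medians of 60.3% in transgenic and 50.7% in wild type cells with at least 30% insulin (called insulin-high). A Y-linked UMI was found in 18 of 24 transgenic and 73 of 104 wild type members, and Xist in 1 transgenic and 0 wild type members. The libraries shared 25 barcodes, of which 2 were members.

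Endothelial transcripts outside endothelial cells were also scarcer in the transgenic library. Insulin-high cells with under 10 rule UMIs carried 775 rule UMIs in 2721 transgenic cells and 1725 in 3219 wild type cells, 0.285 per cell in transgenic and 0.536 in wild type. A rule UMI was seen in 23.8% of these transgenic and 40.9% of these wild type cells, at median depths of 29232 UMIs in transgenic and 23413.5 in wild type over all insulin-high cells. Of the 8 rule genes and the 20 identity genes named further on, 25 had at least 20 UMIs over all insulin-high cells. All insulin-high cells here include 4 transgenic and 5 wild type cells with at least 10 rule UMIs. Of the 25 genes, 24 had a ratio below 0 in insulin-high cells and 13 were at least 2-fold lower in transgenic. Their median log2 ratio there was −1.09. Over all 14278 genes with that many UMIs in insulin-high cells, 1.96% were at least 2-fold lower and the median was −0.01. In the endothelial cells themselves the same 25 genes had a median of −0.06.

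The cells carried the markers of their label. All 8 rule genes were detected in 19 of 24 transgenic and 87 of 104 wild type members. The cells were chosen by the UMIs of these genes, so the genes' own values are a description. Plvap, which builds the diaphragms of fenestrae (chromosome 8, 71497765 to 71511752 of GRCm38), had a median of 23.5 UMIs per cell (5 to 60) in transgenic and 25.5 (4 to 89) in wild type. Flt1, a VEGF receptor that also traps the ligand, had 13.5 (0 to 34) in transgenic and 14 (0 to 41) in wild type. Kdr, the main signalling VEGF receptor, had a median of 10 UMIs in both (0 to 32 in transgenic, 0 to 26 in wild type). These 3 medians lay close together beside ranges that overlapped almost wholly.

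Esm1 stood apart from the other rule genes. Esm1 encodes endocan, a secreted proteoglycan induced by VEGF (chromosome 13, 113209659 to 113218098). It had a median of 8 UMIs per cell (0 to 46) in transgenic and 20 (0 to 86) in wild type, and no UMI in 5 of 24 transgenic and 2 of 104 wild type cells. Of these, 3 transgenic cells and 1 wild type cell are Marco-high cells, described below. Summed over members Esm1 had 328 transgenic and 2274 wild type UMIs, a log2 ratio of transgenic over wild type, scaled by trimmed means (TMM), of −0.83 (−1.01 to −0.67). Without the Marco-high cells it was −0.67 (−0.84 to −0.50), and without these and the globin-rich cells described below −0.77. The sialomucin Emcn was at −0.35, Plvap at −0.33 (−0.46 to −0.21), Egfl7 at −0.25, Flt1 at −0.15, the adhesion molecule Pecam1 at −0.07, Kdr at −0.03 and the VE-cadherin gene Cdh5 at 0.26. The median of all 3292 genes with at least 50 UMIs was −0.13, and 1.09% of them were at least 2-fold higher and 4.37% at least 2-fold lower in transgenic. The scaling matters near 0: total UMIs in place of TMM shift ratios up by 0.15, so a ratio just below 0 can change sign. Cells with much Esm1 also held more Igfbp3, Rbp7 and Kdr: in cells thinned to 5000 UMIs Spearman's rho with Esm1 was 0.64, 0.79 and 0.79 over 24 transgenic cells and 0.56, 0.48 and 0.41 over 104 wild type cells. All these cells of a library share its depth and free RNA, and the 4 cells with Marco described below lack Esm1.

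**Figure D2:**
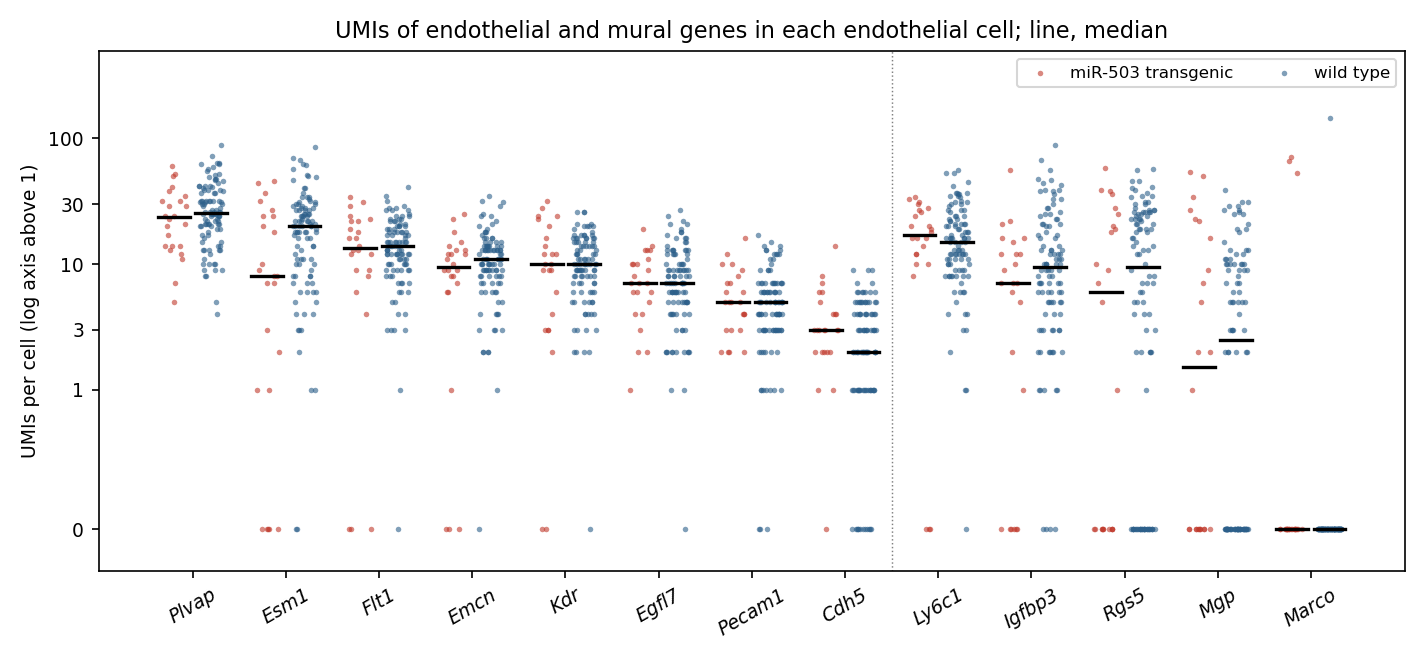
Each point is 1 endothelial cell and gives its UMIs of the gene on the horizontal axis, transgenic on the left and wild type on the right of each pair, with a line at the median. Left of the dotted line are the 8 genes of the rule. Esm1 has medians of 8 UMIs in transgenic and 20 in wild type, Rgs5 spans 0 to over 50 UMIs in both libraries, and Marco is above 0 in 3 transgenic cells and 1 wild type cell.

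The promoters of 2 rule genes are shown from RefSeq (GRCm38.p6), because ETS factors such as Erg, Fli1 and Ets1, which read a GGAA core, are the best known regulators of endothelial genes. AGGAAG and its reverse complement CTTCCT, searched on both strands, are in capitals. The first is at chr5:147725962-147726261 on the minus strand and the second at chr3:137340828-137341127 on the plus strand.
Flt1: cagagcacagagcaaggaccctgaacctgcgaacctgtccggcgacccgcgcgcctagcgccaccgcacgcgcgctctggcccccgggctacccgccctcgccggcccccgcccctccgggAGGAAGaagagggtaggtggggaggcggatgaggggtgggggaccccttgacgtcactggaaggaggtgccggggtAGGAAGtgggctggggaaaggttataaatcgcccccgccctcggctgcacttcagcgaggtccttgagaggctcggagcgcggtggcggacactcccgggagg
Emcn: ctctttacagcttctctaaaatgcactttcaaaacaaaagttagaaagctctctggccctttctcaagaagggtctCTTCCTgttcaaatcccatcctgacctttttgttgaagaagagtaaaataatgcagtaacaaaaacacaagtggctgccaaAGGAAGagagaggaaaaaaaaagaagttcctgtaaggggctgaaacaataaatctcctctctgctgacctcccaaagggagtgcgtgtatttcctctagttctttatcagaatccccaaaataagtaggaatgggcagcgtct
Of the 8 rule genes 5 matched the table, with 7 promoters. Of the 7, 4 held the motif, as did 35.4% of all 32851 promoters of that length. Those of Kdr and Esm1 held none in this window, and Flt1 and Emcn were chosen for display because they do. The factors themselves were detected: Ets1 was at −0.59 (38 transgenic and 222 wild type UMIs), Erg at 0.03 and Fli1 at 0.04, and the endothelial transcription factor list had 18 measured members, 6 above and 12 below 0, with a median of −0.28 and none past 2-fold.

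Outside the rule, the genes most enriched in endothelial over the other kept cells were largely endothelial or mural. The 20 highest with at least 100 UMIs in members were Marco, Btnl9, Sox18, Nrp1, Notch3, Podxl, Cyyr1, Plscr2, Exoc3l2, Ace, Cyp1a1, Ces2e, Pdgfrb, Rbp7, Cd34, AU021092, Eng, Sox7, Col13a1 and Robo4, at 616 to 3294 times the level of the other cells as a mean of both libraries. Nrp1 is a VEGF coreceptor, Eng a coreceptor for TGF-beta family ligands, Robo4 an endothelial guidance receptor and Ace the angiotensin-converting enzyme on the capillary surface. Most of these genes lay near the bulk: Nrp1 was at 0.05 (349 transgenic and 1311 wild type UMIs), Podxl, a sialomucin, at 0.18 and Eng at −0.06. Cyp1a1, a monooxygenase, was at 0.09. Without the Rgs5-high cells described below Cyp1a1 was at −2.14 (−3.00 to −1.38) on 15 transgenic and 210 wild type UMIs. That setting leaves 11 transgenic cells, 3 of them Marco-high, and 41 wild type cells, 1 of them Marco-high. Rbp7, a retinol-binding protein of capillaries, was at −0.76 (−1.03 to −0.50), with medians of 2.5 UMIs per cell in transgenic and 5 in wild type. Of the pan-endothelial list 28 of 30 genes had at least 50 UMIs, 9 above and 19 below 0, with a median of −0.13, the same as all genes. Beside 1.09% of all genes, 1 member was at least 2-fold higher, the tight-junction gene Cldn5. It had 29 transgenic and 36 wild type UMIs in 4 transgenic and 4 wild type cells, at a ratio of 1.65. The 4 Marco-high cells held 51 of these UMIs, and without them Cldn5 was at 3.45 (1.65 to 5.57) on 10 transgenic and 4 wild type UMIs. Those 10 transgenic UMIs were all in 1 cell.

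Capillary genes were present. Fabp4, Rgcc, Ly6c1, Gpihbp1, Cd300lg and Car4, genes of capillary endothelium, all had UMIs, and the 7 measured capillary genes had a median of −0.14 (7 of 12 with at least 50 UMIs, 1 above and 6 below 0, none past 2-fold). Ly6c1 had medians of 17 UMIs per cell in transgenic and 15 in wild type. Gpihbp1, which carries lipoprotein lipase onto the capillary wall, had medians of 2.5 UMIs in transgenic and 3 in wild type and a summed ratio of −0.58 (73 transgenic and 423 wild type UMIs). Genes of larger vessels were mixed. Of the arterial list 9 of 14 genes had at least 50 UMIs, with a median of −0.09. Of the 9, 1 was at least 2-fold higher (Clu) and 2 at least 2-fold lower (Dll4 and Stmn2), beside 1.09% and 4.37% of all genes. Stmn2 had 15 transgenic and 133 wild type UMIs, at −1.19 and at −0.98 without Marco-high and globin-high cells, the connexin gene Gja4 11 transgenic and 62 wild type UMIs, and the transcription factor gene Sox17 23 transgenic and 52 wild type UMIs. Of the venous list 3 of 10 were measured, among them the prostaglandin transporter gene Slco2a1 with 18 transgenic and 111 wild type UMIs and Lrg1 with 41 transgenic and 12 wild type UMIs, of which the Marco-high cells held 51 in all. Other such genes were at or near 0. Gja5, an arterial connexin, had 0 UMIs in 24 transgenic and 104 wild type cells, which, with 3 cells of the total as the limit for a count of 0, allows shares of cells with a UMI of up to 12.5% in transgenic and 2.88% in wild type. The venous gene Ackr1 had 1 transgenic and 0 wild type UMIs, Selp and Sele had none, and Vwf, which large vessels store in quantity, had 2 transgenic and 3 wild type UMIs. Mki67, a marker of dividing cells, had no UMI in either library, and Top2a had 0 transgenic and 3 wild type UMIs.

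Rgs5 was high in some endothelial cells and absent in others, in both libraries. Rgs5, a regulator of G-protein signalling best known from pericytes, was at 5 UMIs or more in 13 of 24 transgenic cells (54.2%, 32.8 to 74.4) and 63 of 104 wild type cells (60.6%, 50.5 to 70.0). It had 0 UMIs in 10 transgenic and 30 wild type cells, and 1 to 4 in 1 transgenic and 11 wild type cells. The minimum of 5 was chosen after the values were seen. Mural genes followed Rgs5 almost completely: of the UMIs of Pdgfrb, the receptor by which pericytes are recruited, 49 of 49 in transgenic and 126 of 130 in wild type were in Rgs5-high cells. For Notch3 these were 33 of 33 in transgenic and 111 of 114 in wild type, and for the pericyte gene Higd1b 22 of 22 in transgenic and 135 of 136 in wild type. For the matrix protein Mgp they were 251 of 252 in transgenic and 677 of 685 in wild type. The contractile genes Acta2 and Tagln showed the same, with 12 of 12 and 27 of 27 in transgenic and 71 of 71 and 106 of 111 in wild type. In thinned cells the rho of Mgp with Rgs5 was 0.90 in transgenic and 0.79 in wild type, and that of Ndufa4l2, a mitochondrial protein abundant in pericytes, was 0.80 in transgenic and 0.74 in wild type.

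**Figure D3:**
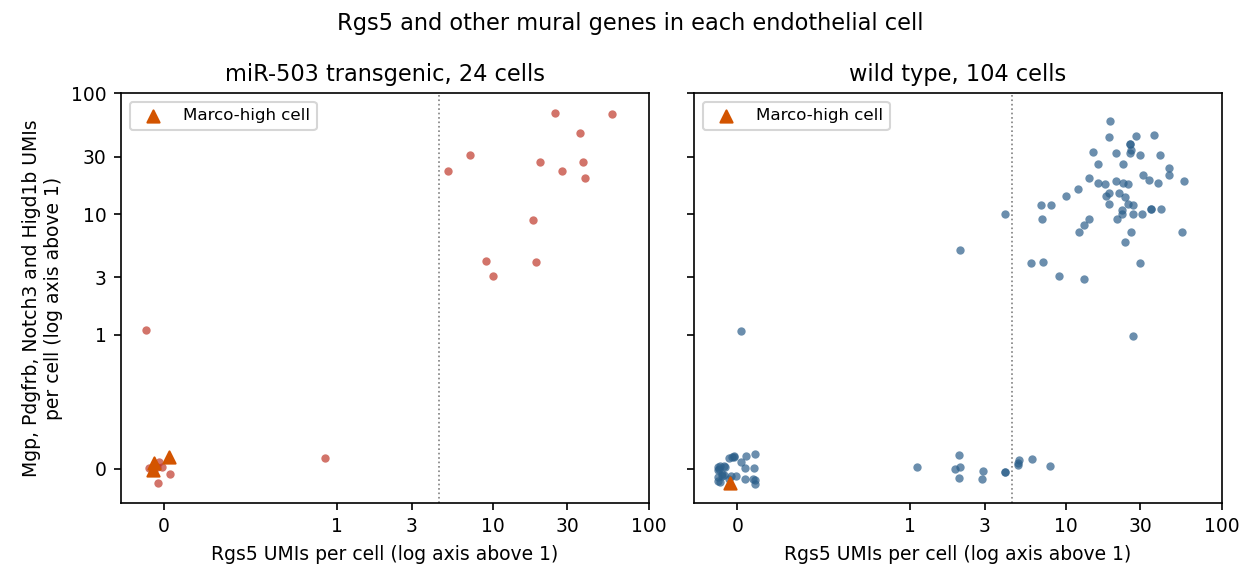
Each point is 1 endothelial cell, with Rgs5 UMIs on the horizontal and the sum of Mgp, Pdgfrb, Notch3 and Higd1b UMIs on the vertical axis, transgenic on the left. The dotted line lies just below 5 UMIs, and to its right are 13 transgenic and 63 wild type cells. The 4 Marco-high cells (triangles) sit at 0 on both axes; points are moved slightly apart.

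Rgs5-high cells carried endothelial transcripts, which the rule required of every member, and some were at lower levels than in the remaining cells. Of the genes that follow, Plvap and Flt1 are rule genes, while Gpihbp1 and Ly6c1 are not. Plvap had medians of 24 UMIs in transgenic and 25 in wild type Rgs5-high cells, and 29 in transgenic and 32 in wild type remaining cells, with the Marco-high ones left out. Flt1 had 16 UMIs in transgenic and 14 in wild type Rgs5-high cells, and 14.5 in transgenic and 14 in wild type remaining ones. Gpihbp1 had 2 UMIs in both transgenic and wild type Rgs5-high cells, and 6 in transgenic and 3.5 in wild type remaining ones. Ly6c1 had 16 UMIs in transgenic and 15 in wild type Rgs5-high cells, and 24 in transgenic and 19 in wild type remaining ones. Outside the rule, 3 transgenic and 3 wild type hormone-low cells reached 5 Rgs5 UMIs. Total UMIs had medians of 8747 in transgenic and 8346 in wild type Rgs5-high cells, and 7704.5 in transgenic and 7670.5 in wild type remaining ones. A doublet score (Scrublet) put 0 transgenic and 2 wild type members among the top 4% of its library. It simulates pairs of observed cells, and few cells outside the members held much Rgs5, so it cannot decide about endothelial-pericyte pairs. Whether the Rgs5-high cells are endothelial cells with an attached pericyte was not tested. Between the libraries, the 8 measured mural markers had a median of −0.17, with 3 above and 5 below 0 and none past 2-fold. Pdgfrb was at 0.55 (0.05 to 1.04), Rgs5 at −0.25 and Higd1b at −0.67. The medians of Esm1 lay further apart in the Rgs5-high cells, at 8 UMIs in transgenic and 19 in wild type, than in the remaining cells without the Marco-high ones, at 22 in transgenic and 24 in wild type. Its summed ratio without the Rgs5-high cells was −0.90, a sum that holds the Marco-high cells with no Esm1. Every ratio given without Rgs5-high cells has this limit: 3 of the 11 transgenic and 1 of the 41 wild type cells left are Marco-high. In that setting Emcn was at −1.01, Nrp1 at −0.49 and Cdh5 at 0.25.

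In all 4 cells carried Marco, a scavenger receptor best known from macrophages, and they had another profile. They held 71, 53 and 66 Marco UMIs in transgenic and 146 in wild type, 3 of 24 transgenic (12.5%, 2.66 to 32.4) and 1 of 104 wild type members (0.962%, 0.0243 to 5.24), and no other member had any. No other kept cell of either library reached 10. The same 4 cells held all UMIs of the hyaluronan receptor Lyve1 (14, 29 and 9 in transgenic, 16 in wild type) and of Cd55 (28, 16 and 11 in transgenic, 21 in wild type) among members. They also held all UMIs of F8, for coagulation factor VIII (5, 5 and 4 in transgenic, 7 in wild type), and of the scavenger receptor Stab2 (6, 0 and 7 in transgenic, 2 in wild type). They had 0 UMIs of Esm1, Flt1, Emcn, Nrp1, Igfbp3 and Ly6c1, against 2602, 1880, 1439, 1660, 1756 and 2269 UMIs in the other members. Plvap (24, 14 and 5 in transgenic, 19 in wild type) and Egfl7 (13, 19 and 13 in transgenic, 27 in wild type) gave most of their rule UMIs. Of macrophage genes Cd68 and C1qa had 0 UMIs in these cells, against 8 and 12 in the other members, Mrc1 had 2 and Lyz2 had 1. Ptprc was limited by the rule and Csf1r was at 0 in all members. Of the lymphatic list Prox1 had 6 UMIs in them, Pdpn 6, Reln 4, Flt4 4, Mmrn1 3 and Ccl21a 1. These 4 cells are given no cell type name.

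Few genes passed 2-fold, and more of them were lower than higher in transgenic. The members' UMIs summed to 207628 in transgenic and 894681 in wild type, so counting error was larger on the transgenic side. Its part in the unequal numbers was not tested. Of 3292 genes with at least 50 UMIs over both libraries, 36 (1.09%) were at least 2-fold higher and 144 (4.37%) at least 2-fold lower in transgenic endothelial cells. Under total scaling 63 were higher and 97 lower. Among the 1719 genes with at least 100 UMIs 12 (0.698%) were higher and 32 (1.86%) lower. Without the Marco-high cells and the cells rich in globin described below, 18 (0.582%) of 3093 genes were higher and 130 (4.2%) lower.

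At the high end, the genes with at least 100 UMIs that endothelial cells express at least at the level of other cells were Marco (2.34), H2-Aa (2.14), Cd74 (2.11), Apoe (1.99), Igfbp4 (1.96), Clu (1.72), Ctsd (1.68), Sepp1 (1.24), Cxcl10 (1.18), Sdpr (1.18), Pdlim1 (1.17) and Glul (1.02). Most of these were under 2-fold without the Marco-high and globin-high cells. In that setting Clu, a secreted chaperone, was at −0.48, the selenium carrier Sepp1 at −0.25, the lysosomal protease Ctsd at 0.53, the caveolar protein Sdpr at 0.44, and the interferon-induced chemokine Cxcl10 at −2.34, 65 of its 71 transgenic UMIs being in 1 Marco-high cell. Igfbp4, which binds insulin-like growth factors, kept 0.65, Pdlim1 0.12 and Glul 0.13. Apoe, the lipid carrier, was at 2.15, and at 0.92 without Rgs5-high cells, and 91 and 54 of its 219 transgenic UMIs were in 2 cells, 1 of which held 25 UMIs of the fibroblast gene Dcn. Tm4sf1, a tetraspanin-like protein of endothelial cells at 0.97, had 192 of 339 transgenic UMIs in 1 Marco-high cell and was at 0.05 in that setting.

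The low end was spread over more cells. Among genes with at least 100 UMIs, the lowest beside the globin genes was Bpgm (−2.67), which makes the red cell metabolite 2,3-bisphosphoglycerate. Bpgm was at −2.19 (−4.10 to −0.77) without Marco-high and globin-high cells, on 4 transgenic and 77 wild type UMIs. Next came AU021092 (−1.98), Slbp (−1.69), Oasl1 (−1.51), Hilpda (−1.38), Rock1 (−1.33), 8430408G22Rik (−1.31), Apold1 (−1.21) and Nrarp (−1.19). Without Marco-high and globin-high cells 8430408G22Rik was at −0.84 and Nrarp at −0.99, and the rest of these genes stayed at least 2-fold lower. Oasl1, an interferon-induced regulator (chromosome 5, 114923240 to 114937915), had a UMI in 8 of 24 transgenic cells (33.3%) and 70 of 104 wild type cells (67.3%), and in 20.8% of transgenic and 57.7% of wild type cells after thinning to 5000 UMIs, against 1.0% of transgenic and 1.2% of wild type thinned insulin-high cells. Oasl1 was lower in other cells too, at −1.31 (−1.66 to −0.98) in insulin-high cells on 97 transgenic and 278 wild type UMIs, and at −2.16 in hormone-low cells with Ptprc on 77 transgenic and 199 wild type UMIs. In endothelial cells its summed ratio was −1.51 (−2.25 to −0.85) and −1.50 without Marco-high and globin-high cells. Apold1, an early-response gene of endothelium (chromosome 6, 134981718 to 134986836), was seen in 12 of 24 transgenic and 85 of 104 wild type cells, and in 41.7% of transgenic and 70.2% of wild type cells after thinning. Hilpda, a lipid droplet protein induced by hypoxia, was seen in 6 of 24 transgenic and 60 of 104 wild type cells, and was at −1.38, at −2.40 without Marco-high and globin-high cells, and at −0.80 (−1.70 to 0.0053) without Rgs5-high cells. AU021092 was also lower in insulin-high cells, where endothelial transcripts as a whole were scarcer, at −1.80 on 3 transgenic and 12 wild type UMIs.

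**Figure D4:**
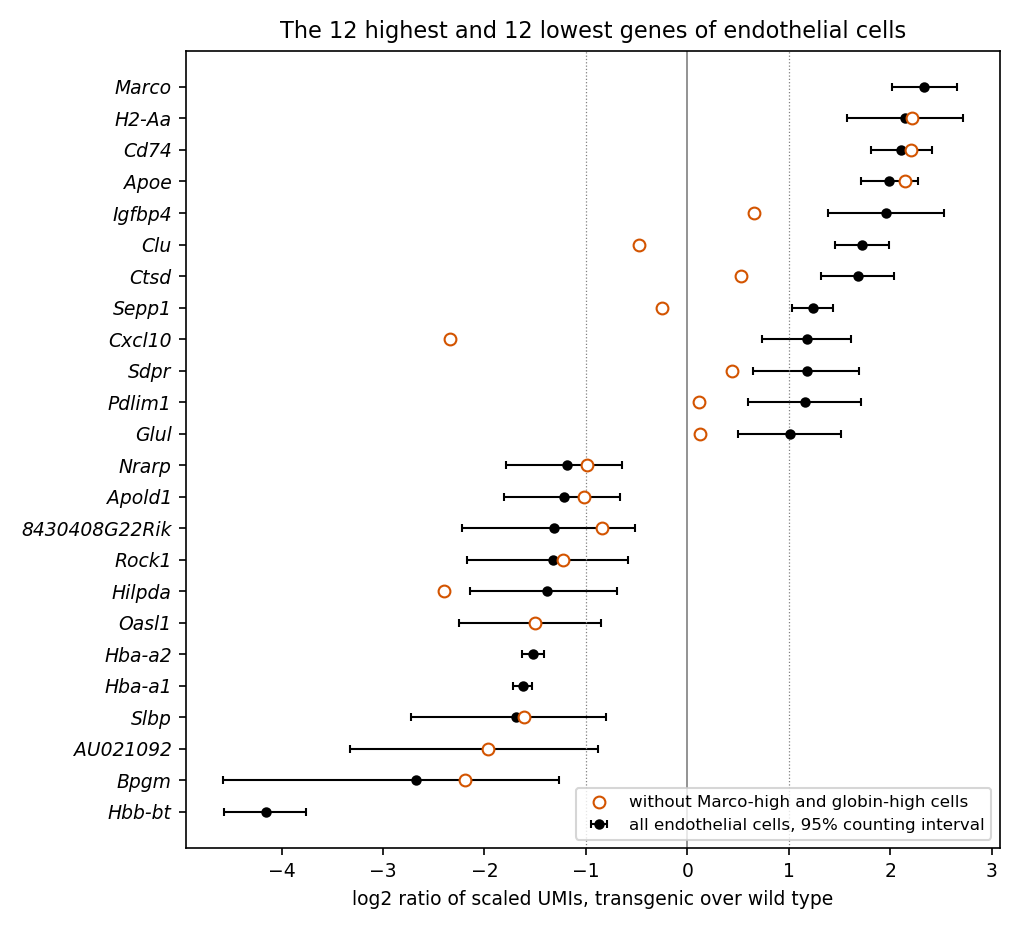
Filled points give log2 ratios of scaled UMIs, transgenic over wild type, with 95% counting intervals, for the 12 highest and 12 lowest genes with at least 100 UMIs. Open points, left out where a library has 3 UMIs or fewer, give the ratio without Marco-high and globin-high cells. Clu, Sepp1 and Cxcl10 move below 0, while Oasl1, Slbp, Rock1 and AU021092 stay below −1.

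Genes of sprouting vessels and Notch signalling had low members. In the tip and sprouting list 10 of 13 genes were measured, 0 at least 2-fold higher and 2 at least 2-fold lower, beside 1.09% higher and 4.37% lower of all genes, with a median of −0.64 beside −0.13 for all genes. Esm1 is in this list and in the rule. Without Rgs5-high cells the list's median was −0.38. Dll4, the Notch ligand of tip cells (chromosome 2, 119325784 to 119335962), had 9 transgenic and 85 wild type UMIs, in 7 of 24 transgenic and 52 of 104 wild type cells, at −1.28 (−2.46 to −0.29). Without Rgs5-high cells Dll4 was at −2.54 (−5.64 to −0.59), on 2 transgenic and 37 wild type UMIs. Unc5b, a guidance receptor of tip cells, was at −1.19 (−2.37 to −0.20) on 9 transgenic and 80 wild type UMIs, but at −0.92 (−2.11 to 0.08) without Marco-high and globin-high cells and at −0.21 without Rgs5-high cells. The basement membrane protein Nid2 was at −0.92, the urokinase receptor Plaur at −0.71, and Angpt2, which loosens vessels for growth, at 0.39. Of 8 measured Notch genes Dll4 and its target Nrarp were at least 2-fold lower and none higher, with a median of −0.10. Nrarp, a feedback inhibitor of Notch, had 30 transgenic and 266 wild type UMIs, in 14 of 24 transgenic and 85 of 104 wild type cells. Its ratio without Rgs5-high cells was −2.48 (−4.14 to −1.21), on 5 transgenic and 89 wild type UMIs. Other Notch genes lay near 0: Hes1 was at −0.06, Notch1 at −0.07 and Hey1 at 0.01. The VEGF and angiopoietin receptor list had 11 measured members, none past 2-fold, with a median of −0.06.

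Signals that endothelial cells send and the enzymes that set vessel tone had few members past 2-fold. Over all genes 1.09% were at least 2-fold higher and 4.37% at least 2-fold lower in transgenic. Of 9 measured vascular ligands none passed, and their median was −0.45. Ctgf, a matricellular protein, was at −0.85 (−1.39 to −0.35) on 37 transgenic and 260 wild type UMIs (−2.50 without Rgs5-high cells), Efna1 at −0.64, and the stem cell factor gene Kitl at 0.15. Vegfa itself had 6 transgenic and 23 wild type UMIs and is less abundant in endothelial cells than in the other cells. Of 10 measured vasoactive genes, 1 was at least 2-fold lower, Ptgs1, which makes prostaglandin precursors, at −1.04 (−2.31 to 0.02), and none higher. The endothelial nitric oxide synthase gene Nos3 was at −0.60 on 9 transgenic and 53 wild type UMIs and Edn1, for endothelin-1, had 2 transgenic and 19 wild type UMIs. Basement membrane genes, which supply the matrix of beta cells, were 17 with a median of −0.09 and none past 2-fold, with the collagens Col4a1 and Col4a2 both at 0.01 and Col15a1 at 0.56. In the insulin and IGF axis, of interest given the title, 9 genes had a median of −0.34. Igfbp3, which binds IGFs, was at −0.73 (−0.93 to −0.53) on 236 transgenic and 1520 wild type UMIs, the insulin receptor gene Insr at −0.55 (−1.69 to 0.43) on 10 transgenic and 57 wild type UMIs (−1.97 without Rgs5-high cells), and Igfbp4 was the 1 member past 2-fold.

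**Figure D5:**
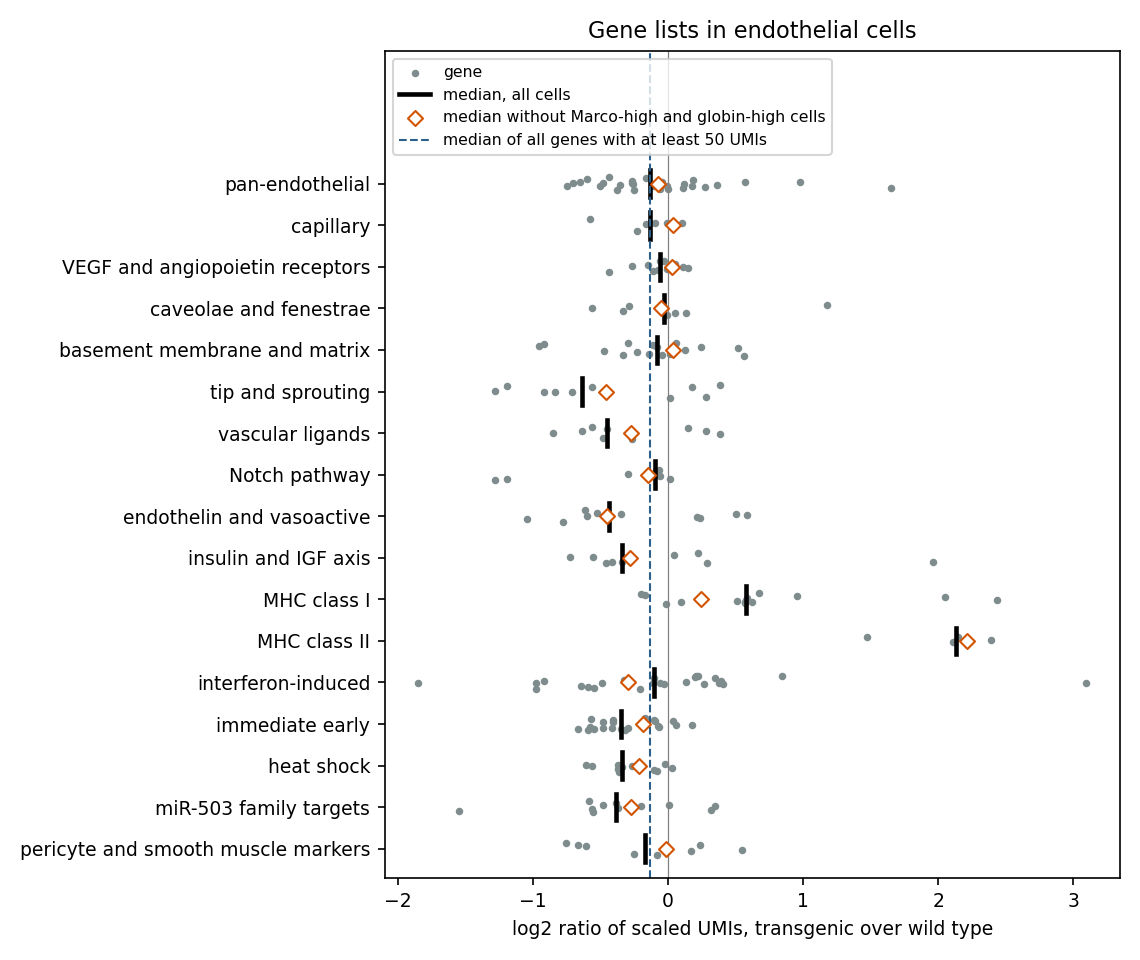
Grey points give log2 ratios of scaled UMIs, transgenic over wild type, of list genes with at least 50 UMIs, black lines the list median and open diamonds the median without Marco-high and globin-high cells. The dashed line marks −0.13, the median of all genes. Of the lists drawn, MHC class II has the highest median at 2.13 and tip and sprouting genes the lowest at −0.64.

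Antigen presentation genes had ratios mostly above 0, and for class II a few cells held most of the UMIs. All 4 measured MHC class II genes were at least 2-fold higher, beside 1.09% of all genes, with a median of 2.13. In transgenic 2 cells held 82 and 92 of the 199 Cd74 UMIs, and 1 of them 43 of 58 H2-Aa UMIs. In wild type 1 cell held 115 of 179 Cd74 and 31 of 51 H2-Aa UMIs, with 8 UMIs of the B cell gene Cd79a. These cells had 0 Ptprc UMIs in transgenic and 1 in wild type. Without Rgs5-high cells, which hold the transgenic cell with 92 Cd74 UMIs, the class II median was 0.15, with Cd74 at 1.10, H2-Aa at −0.37 and H2-Eb1 at −0.55. Members with under 20 Cd74 UMIs held on average 1.14 in transgenic and 0.621 in wild type. Cd74 was seen in 54.2% of thinned transgenic and 24.0% of thinned wild type members, against 26.6% of transgenic and 19% of wild type thinned insulin-high cells, which should lack it. Unthinned, it was in 66.7% of transgenic and 33.7% of wild type members. MHC class I was broader: 11 of 14 measured genes were above 0 and 3 below, with 2 at least 2-fold higher and a median of 0.57, which was 0.24 without Marco-high and globin-high cells. H2-Q7 was at 2.43 (1.83 to 3.05) and H2-Q6 at 2.05, near-identical genes between which counting may split reads. H2-K1 was at 0.96 (0.32 without those cells) and B2m, the shared light chain, at 0.62 (0.18 without).

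The listed interferon-induced genes went both ways. Of 27 measured genes 11 were above and 16 below 0, with 1 past 2-fold each way. Their median was −0.10, beside −0.13 for all genes, and −0.30 without Marco-high and globin-high cells. Oasl1, at −1.51 over all members, is not in this list. Ifi27l2a was at 3.10 on 55 transgenic and 25 wild type UMIs, 63 of these being in the 4 Marco-high cells, and it was at 2.75 in insulin-high cells. Irf1, an interferon-induced transcription factor, was at −0.98 (−1.57 to −0.43) on 31 transgenic and 237 wild type UMIs. Among 9 measured inflammatory mediators 2 were at least 2-fold higher, Cxcl10 and Ccl2, and 3 at least 2-fold lower. The shares over all 3292 genes were 1.09% higher and 4.37% lower. Ccl2, a monocyte chemokine, was at 1.13 on 32 transgenic and 57 wild type UMIs, in 6 of 24 transgenic and 9 of 104 wild type cells, and at 1.90 in insulin-high cells, but at −0.11 in endothelial cells with a Y-linked UMI and no Xist. The lower ones were Csf3 (1 transgenic and 49 wild type UMIs, at −3.66, −8.99 to −1.11), the NF-kappaB inhibitor Tnfaip3 (4 transgenic and 72 wild type UMIs, at −2.21) and Cxcl1 (9 transgenic and 70 wild type UMIs), which was at 0.86 without Rgs5-high cells. The 6 measured leukocyte adhesion genes had a median of 0.15, with Icam1 at −0.08, and Vcam1 had 3 transgenic and 9 wild type UMIs.

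Stress genes were abundant in both libraries, with ratios mostly below 0. Of 21 measured immediate early genes 18 were below 0, none past 2-fold, with a median of −0.35, and of 11 heat shock genes 10 were below 0, none past 2-fold, with a median of −0.34. Under total scaling these medians were −0.20 and −0.19, beside a shift of 0.15 for all genes. Under TMM scaling without Marco-high and globin-high cells they were −0.19 and −0.22. The median of all genes, over all members, was itself below 0, at −0.13. Hspa1a had a median of 22.5 UMIs per cell (0 to 165) in transgenic and 18.5 (0 to 186) in wild type, and the groups overlapped fully. The small heat shock gene Hspb1 was at −0.61 and Junb at −0.57, while Fos and Jun were at 0.04 and 0.18. Without Rgs5-high cells some listed genes passed 2-fold, with Junb at −1.30 (−1.57 to −1.03), Zfp36 at −1.37 and Hspe1 at −1.02. Others did not, such as Hspb1 at −0.58 and Ier3 at −0.65. Among cells Hspa1a ran with Hspb1 (rho 0.47 in thinned transgenic and 0.60 in thinned wild type cells) and with Hspa1b (0.73 in both).

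Reported targets of the miR-503 family were measured in 11 of 27 cases. None was at least 2-fold higher and 1 at least 2-fold lower, beside 1.09% and 4.37% of all genes. Of the 11, 3 were above and 8 below 0, with a median of −0.38 beside −0.13 for all genes. Without Marco-high and globin-high cells the list's median was −0.27. The gene at least 2-fold lower was Ikbkb, a kinase that activates NF-kappaB, at −1.54 (−3.04 to −0.35) on 6 transgenic and 68 wild type UMIs, in 6 of 24 transgenic and 49 of 104 wild type cells. The cyclin genes Ccnd1, Ccnd2 and Ccnd3 were at −0.59, −0.37 and −0.38, of which Ccnd2 is more abundant in the other cells than in endothelial cells, and Efnb2 was at −0.48. Without Rgs5-high cells Ccnd2 was at −1.68 (−2.78 to −0.74) and Ccnd1 at −0.50 (−1.82 to 0.63). Without Marco-high and globin-high cells Ccnd2 was at −0.23 (−0.63 to 0.15) and Ccnd1 at −1.36 (−2.72 to −0.25). Whether miR-503 reaches endothelial cells was not tested. Of 10 measured senescence genes 2 were at least 2-fold higher, Ccl2 and Timp2 (1.21, and −0.067 without Marco-high and globin-high cells), and 2 lower, Cdkn2b and Cxcl1. Cdkn1a, the p21 inhibitor, was in nearly every cell, with medians of 12.5 UMIs in transgenic and 11 in wild type and a ratio of −0.11. Cdkn2b, the p15 inhibitor (chromosome 4, 89306299 to 89311039), had 1 transgenic and 67 wild type UMIs, in 1 of 24 transgenic and 33 of 104 wild type cells, at −4.11 (−9.43 to −1.58). Thinned, it was in 4.17% of transgenic and 26% of wild type members, against 5.0% of transgenic and 6.8% of wild type insulin-high cells. Cdkn2a had 1 transgenic and 22 wild type UMIs.

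Red cell transcripts marked 7 cells. Globin genes made up 51.1% of UMIs in 1 transgenic cell and 33.6% to 71.3% in 6 wild type cells, with 4026 globin UMIs in the transgenic cell and 5204 to 9431 in the wild type ones. No other member held more than 1 in transgenic or 17 in wild type. The red cell gene Alas2 had 3 transgenic and 88 wild type UMIs, all in these cells. The ratios of Hbb-bt (−4.15), Hba-a1 (−1.62) and Hba-a2 (−1.52) therefore compare mainly 1 transgenic with 6 wild type cells. Markers of other cells were low: the 11 macrophage markers summed to 22 transgenic and 88 wild type UMIs (101 CPM in transgenic and 104 in wild type), with Csf1r at 0 in both libraries and Ptprc at 0 in transgenic and 1 in wild type. The 8 fibroblast markers summed to 87 transgenic and 62 wild type UMIs (398 CPM in transgenic and 73.0 in wild type, UMIs scaled to a common total), 25 of the 27 transgenic Dcn UMIs being in 1 cell, and their part in the results above was not tested.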

How the data were processed

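The authors deposited raw UMI counts for each gene in each droplet, not normalized. Per the submitters' processing notes the authors used Cell Ranger 2.1.0, STAR 2.5.1b and the build mm10; the annotation release and cell filter are not given in the sources used here. Endothelial members, gene lists and thresholds were chosen with earlier results of these data known, and the Rgs5-high, Marco-high (at least 10 UMIs), globin-high (at least 1000 UMIs) and Cd74-rich cells after their values were seen. UMIs were summed over members of each library and scaled with TMM (edgeR 4.0.16, R 4.3.3). Ratios carry exact conditional binomial 95% intervals, with 0 counts set at 3, and called means past 2-fold. The ratio code was tested on simulated data. Shares were recomputed after thinning each cell to 5000 UMIs, beside 500 randomly chosen insulin-high cells per library. No cell was removed as a doublet: the automatic threshold of Scrublet (scanpy 1.11.5) marked only 14 and 5 cells, so leaving out the top 4% of scores was an alternative.

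Named were the 8 rule genes, the 20 genes with at least 100 UMIs highest in members over other kept cells, the 12 highest and 12 lowest ratios at 100 UMIs or more among genes at least as high in members as in other cells (sex-linked genes left out), up to 4 genes with the largest ratios per list, and genes of prior interest. Genes outside these rules, such as those of the Marco-high cells, H2-K1, B2m and other list members with small ratios, were chosen after their values were seen. Coordinates are from GENCODE M21 (GRCm38), matched by gene ID. The alternatives tried were DESeq2 1.42.0 size factors, total UMIs with and without hormone and enzyme genes, per-cell means, other UMI, insulin and mitochondrial limits, and cells with a Y-linked UMI only. Computation used scipy 1.17.1 for intervals and matplotlib 3.10.9 for plots, under Python 3.11.15. The values of 1 list member are not reported here.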

Additional observations from a re-analysis of the deposited data

How the results depend on the processing

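No paired analysis was possible because each group has 1 library, and for the same reason no replicate could be left out. The endothelial shares kept within their intervals under other marker, insulin, mitochondrial and doublet limits; without Rgs5-high cells they were 0.265% in transgenic and 0.906% in wild type. The genes at least 2-fold higher in transgenic members and the genes at least 2-fold lower in transgenic members numbered 63 and 97 under total UMIs, 64 and 90 without hormone and enzyme genes in the total, 183 and 567 at a minimum of 20 UMIs, 12 and 32 at 100 UMIs, and 1023 and 1049 at 1 UMI. Genes at least 2-fold higher numbered 20 without Marco-high cells and 18 without Marco-high and globin-high cells. Some alternatives reversed the sign of a named gene. Without Marco-high cells, and without these and globin-high cells, Clu was at −0.56 and −0.48 and Cxcl10 at −2.36 and −2.34. In the same settings Sepp1 was at −0.26 and −0.25, and Timp2 at −0.11 and −0.067. The Marco-high cells held 338 Clu, 76 Cxcl10 and 327 Sepp1 UMIs, against 126, 117 and 547 in the other members. The cause of these reversals was not tested. Without Rgs5-high cells Cxcl1 was at 0.86, H2-Aa at −0.37 and H2-Eb1 at −0.55, and in cells with a Y-linked UMI and no Xist Ccl2 was at −0.11; the cause was not tested. The depth of 24 transgenic cells limits the rest: Ptgs1, with 8 transgenic and 64 wild type UMIs, has an interval of −2.31 to 0.02.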
